A study of Mus musculus with 4 samples.

Results

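The genes described here are 10 lipogenic transcription factors and enzymes of mouse liver, chosen by name: Srebf1, Mlxipl, Fasn, Acly, Pnpla3, Gpam, Dgat1, Dgat2, Agpat2 and Lpin1. All 10 were found among the 55487 gene identifiers of the deposited tables, and all 10 were among the 14411 genes that passed the filter on low counts. Polyadenylated RNA was sequenced from liver of 11-week-old female FVB-background mice, of which 2 were labelled PA and 2 wild type (WT). The PA mice are described in the labels as hypomorphic Pcca-/- (A138T), and the Pcca product is part of the mitochondrial carboxylase that disposes of propionyl-CoA. Both genotypes were kept on standard chow in a light-dark cycle with free access to food. The hour of collection and the feeding state at collection are not given in the sources used here. The series title places the work among studies of histone acylation under metabolic stress, and the question here is how the lipogenic transcripts of PA liver stand beside those of WT liver.

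Hepatic lipogenesis turns surplus carbohydrate into fatty acids and stores them as triglyceride. The factors SREBP-1c (from Srebf1) and ChREBP (from Mlxipl) switch the pathway on after feeding, the first downstream of insulin and the second downstream of glucose metabolites. Citrate is cleaved to cytosolic acetyl-CoA by ATP citrate lyase (Acly), fatty acid synthase (Fasn) builds palmitate, and acyl chains are then placed on glycerol by GPAT1 (Gpam), AGPAT2, the phosphatidate phosphatase lipin-1 (Lpin1) and the diacylglycerol acyltransferases DGAT1 and DGAT2. Pnpla3 encodes a lipid droplet protein of the patatin family and is a known target of SREBP-1c.

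The livers of the PA mice did not share one lipogenic state. All 10 genes read lower in PA replicate 1 than in PA replicate 2, against 49.8% of all tested genes. Fasn, Acly, Gpam, Srebf1 and Pnpla3 differed more than 2-fold between the PA livers, as did 10% of all tested genes. None of the 10 differed by that much between the WT livers, against 5.29% of all tested genes. For Fasn, Acly and Srebf1, PA replicate 1 lay below both WT livers and PA replicate 2 above both. No gene of the 10 was called between PA and WT by the edgeR quasi-likelihood test at an adjusted p of 0.05, with 2 mice per group. That test called 0.812% of all tested genes, so 0 of 10 is near the background. Genes of one pathway in one liver are not independent of each other, so the 10 do not add up to 10 observations.

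Library totals were 25990553 and 30110400 gene counts in PA replicates 1 and 2, against 29627033 and 25575016 in WT replicates 1 and 2. Pcca was at 34.2 and 47.4 CPM in PA and 60.3 and 58.9 CPM in WT. CPM are counts scaled to a common depth with TMM-scaled library sizes. The log2 fold change of Pcca, -0.55 ± 0.22 (standard error), did not pass the threshold (edgeR adjusted p = 0.398). A count over the whole gene does not show the sequence of the transcripts, so the A138T label could not be checked with it. The share of counts from the mitochondrial genome was 13.6 and 8.98% in PA replicates 1 and 2, against 6.90 and 7.38% in WT. With these genes left out of the fit, 0 of the 10 genes were called and Fasn differed between the PA livers by -2.12 on the log2 scale, as with them. Multimapping reads made up 13.5 and 9.19% in PA replicates 1 and 2, against 9.11 and 9.42% in WT. Reads that name no gene, which include the multimapping reads, made up 34.3 and 28.1%, against 29.6 and 31.1%. Leaving the mitochondrial genes out bears on scaling and fit only, not on what their share in PA replicate 1 reflects. That, and the part of the multimapping and no-gene shares in the results, was not tested. The hepatocyte marker Alb, for serum albumin, averaged 133919 ± 18782 CPM in PA and 140009 ± 13339 CPM in WT (SD, n = 2 each), the level of liver tissue in all libraries. In bulk tissue, fewer cells of a type and less RNA per cell cannot be told apart.

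The transcription factors differed from each other. Srebf1 (chromosome 11, 60199089 to 60222581, minus strand, GRCm38) read 140 and 334 CPM in PA replicates 1 and 2, against 179 and 203 CPM in the WT livers. The PA values thus stood on either side of the WT values, and the log2 fold change of PA over WT was 0.31 ± 0.39 (standard error; edgeR adjusted p = 0.818). Gene-level counts do not separate the SREBP-1a and SREBP-1c transcripts. Mlxipl (chromosome 5, 135089890 to 135138382, plus strand) was at 62.6 and 88.6 CPM in PA and 124 and 103 CPM in WT. Both PA livers were below both WT livers, and the difference, -0.59 ± 0.25 on the log2 scale, did not pass the threshold (edgeR adjusted p = 0.417).

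The enzymes that make the fatty acid chain had the widest spread between the PA livers of any abundant member. Fasn (chromosome 11, 120805846 to 120824547, minus strand) read 311 and 1354 CPM in PA replicates 1 and 2, against 513 and 640 CPM in the WT livers. Acly (chromosome 11, 100476353 to 100528000, minus strand) read 178 and 807 CPM in PA replicates 1 and 2, against 360 CPM in each WT liver. Both genes were lowest in one PA liver and highest in the other, so the groups overlapped completely. Their PA means were nonetheless above the WT means, at 833 ± 737 and 576 ± 90.3 CPM for Fasn (SD, n = 2 each). For Acly they were 492 ± 445 CPM in PA and 360 ± 0.0581 CPM in WT. The log2 fold changes of 0.53 (95% interval -0.87 to 1.94; edgeR adjusted p = 0.791) for Fasn and 0.45 (-0.96 to 1.86; 0.829) for Acly leave a change in either direction possible.

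Among the enzymes that build glycerolipids, Gpam and Lpin1 read higher in both PA livers. Gpam (chromosome 19, 55067268 to 55127238, minus strand), the first acylation step, was at 305 and 1116 CPM in PA and 245 and 267 CPM in WT. PA replicate 2 held nearly all of the excess, and the log2 fold change was 1.47 ± 0.54 (edgeR adjusted p = 0.345). DESeq2 called Gpam (adjusted p = 0.0487), and limma-voom did not (0.459). Lpin1 (chromosome 12, 16535669 to 16610966, minus strand), which also acts as a transcriptional coactivator, was at 107 and 111 CPM in PA and 66.7 and 64.3 CPM in WT. It was the most even of the differences, since each pair differed by far less than the groups did. Its log2 fold change was 0.73 ± 0.20, with an unadjusted p of 0.00682 and an adjusted p of 0.188 (edgeR).

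The other acyltransferases did not separate the genotypes. Agpat2 (chromosome 2, 26593057 to 26604417, minus strand), the second acylation step, was at 123 and 140 CPM in PA and 124 and 91.5 CPM in WT. Dgat1 (chromosome 15, 76502015 to 76511953, minus strand) was at 16.3 and 16.8 CPM in PA and 15.9 and 16.5 CPM in WT. Dgat2 (chromosome 7, 99153658 to 99182719, minus strand) was at 372 and 561 CPM in PA and 438 and 488 CPM in WT. The groups overlapped for all 3 genes. Dgat1 was the steadiest gene of the 10, and its log2 fold change of 0.03 had a 95% interval of -0.42 to 0.47. Dgat2 followed the order of Fasn, with PA replicate 1 lowest and PA replicate 2 highest, over a narrower range.

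Pnpla3 (chromosome 15, 84167837 to 84187236, plus strand) had the lowest level of the 10 and, with all 4 libraries, the largest log2 difference from WT. It was read at 6 and 79 counts in PA and 230 and 119 counts in WT, or 0.236 and 2.66 CPM in PA and 7.50 and 4.67 CPM in WT. Both PA livers were below both WT livers, and PA replicate 1 held almost none. The log2 fold change was -2.04 ± 0.78 (edgeR adjusted p = 0.363). DESeq2 (adjusted p = 0.812) and limma-voom (0.252) did not call it either.

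**Figure D1:**
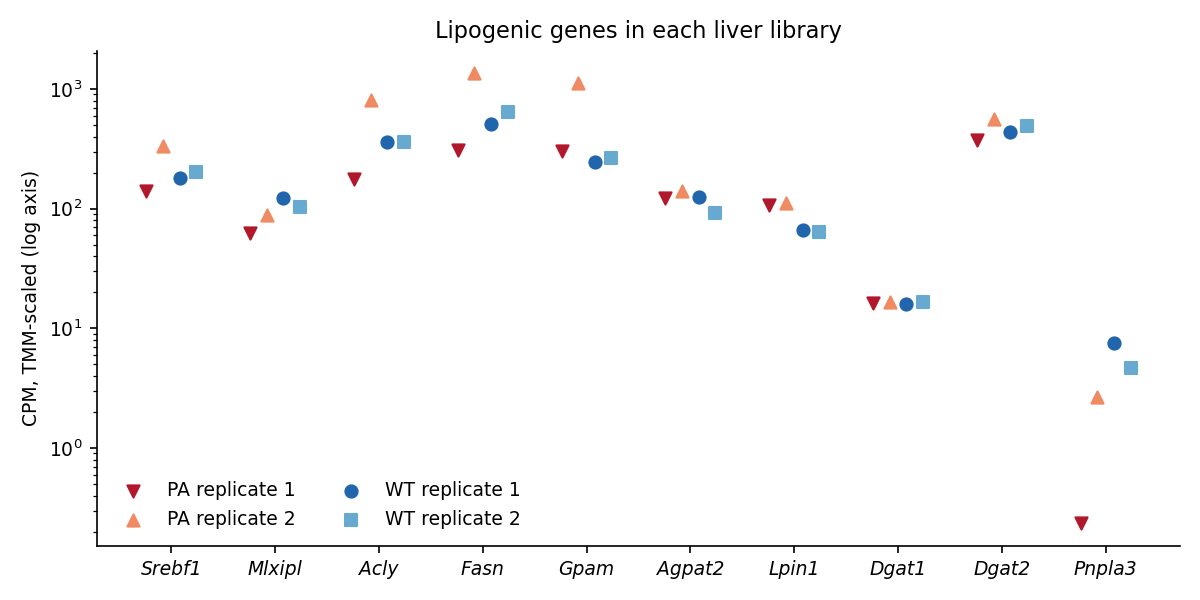
Level of each gene in each liver library, in CPM on TMM-scaled library sizes (log axis); each point is 1 library. For Fasn the PA libraries sit at 311 and 1354 CPM on either side of the WT libraries at 513 and 640 CPM, while the PA points of Lpin1, at 107 and 111 CPM, lie together above the WT points.

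Read over the whole set, edgeR called 0 of the 10 genes at an adjusted p of 0.05, where 0.812% of all tested genes were called (0.264% higher and 0.548% lower in PA). At an unadjusted p of 0.05 there were 4, Gpam and Lpin1 higher and Mlxipl and Pnpla3 lower, against 11.8% of all tested genes (5.88% higher and 5.93% lower). The same 4 genes were the ones whose CPM did not overlap between the genotypes, a pattern shown by 43.2% of all tested genes (21.3% higher and 21.9% lower), so 4 of 10 is near the background. DESeq2 called 1 gene, Gpam, where it called 3.07% of genes, and limma-voom called 0 (0.604% of genes). With no filter on low counts edgeR called 2, Gpam higher and Pnpla3 lower, and 3.7% of all genes. The median log2 fold change of the 10 genes was 0.30, beside 0.00489 for all tested genes, and single values ran from -2.04 to 1.47. By limma-voom the log2 fold changes of Fasn and Acly were smaller, at 0.17 and 0.06, and that of Srebf1 was 0.18.

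Levels can be compared between genes only per unit of length, for which the authors' TPM values (length-scaled transcript shares) were used. Dgat2 stood first in WT, at 244 ± 7.25 TPM (SD, n = 2), followed by Fasn at 125.5 ± 19.0 TPM. Agpat2 (104 ± 26.1 TPM), Acly (102.3 ± 2.20 TPM) and Srebf1 (86.9 ± 7.61 TPM) came next, and Fasn, Acly and Srebf1 all lay within the spread of Agpat2. Gpam (60.4 ± 1.82 TPM) and Mlxipl (45.3 ± 7.46 TPM) followed. Lpin1 (14.1 ± 1.03 TPM) and Dgat1 (14.1 ± 0.863 TPM) could not be told apart, and Pnpla3 was lowest at 5.83 ± 2.18 TPM. In PA, Dgat2 was at 216 ± 93.6 TPM, Fasn at 197 ± 194 TPM and Gpam at 148 ± 137 TPM, means closer together than these SDs. Gpam was nonetheless the lowest of these 3 in each PA liver, and only the order of Dgat2 and Fasn turned. In PA replicate 2 alone Fasn stood first with 335 TPM, and in PA replicate 1 Dgat2 stood first with 150.04 TPM with Fasn at 60.2 TPM. TPM also depends on what else is in a library. Over 13686 genes the median ratio of a gene's TPM to its own WT mean was 0.758 in PA replicate 1, against 0.944 in PA replicate 2. On this scale Gpam in PA replicate 1, at 51.4 TPM, was below the WT values of 59.1 and 61.7 TPM, although its CPM was above both WT livers. The higher reading of Gpam in PA replicate 1 thus depends on the scaling, and that in PA replicate 2, at 245 TPM, does not.

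The size of the difference between the PA livers was set against that between the WT livers. Each ratio compares 1 library with 1 library, so there is no test, and the 95% intervals cover counting error only. Fasn in PA replicate 1 was 0.230 of its CPM in PA replicate 2 (0.225 to 0.236), and Acly was 0.221 of it (0.214 to 0.228). For Fasn the WT replicate 1 value was 0.801 of that in WT replicate 2, and for Acly the interval of that ratio, 0.973 to 1.03, included 1. Gpam in PA replicate 1 was 0.274 (0.267 to 0.280) of PA replicate 2, and Srebf1 was 0.421 (0.405 to 0.438). Pnpla3, with few counts, was 0.0886 (0.0316 to 0.202). These ratios are far outside counting error, and the WT pair came closer in each of the 5 genes.

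Differences as large as that of Fasn were rare across the genome. Of all tested genes, 1.298% had a larger difference between the PA livers in either direction than Fasn, 1.22% than Acly, 1.92% than Gpam, 0.340% than Pnpla3 and 5.79% than Srebf1. Dgat2 was just past 1.5-fold, at 0.663 (0.647 to 0.681), and 27.7% of genes differed more. Mlxipl (0.706, 0.663 to 0.752) and Agpat2 (0.875, 0.835 to 0.917) were lower in PA replicate 1 by more than counting error. Lpin1 (0.960) and Dgat1 (0.972) had intervals that included 1, so no difference was detectable at this depth.

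Counted together, 6 of the 10 genes differed by more than 1.5-fold between the PA livers, all lower in PA replicate 1, where 12.6% of tested genes were lower and 28% differed in either direction. At 2-fold the count was 5, against 4.32% of tested genes lower and 5.68% higher in PA replicate 1. Between the WT livers 1 gene, Pnpla3, was past 1.5-fold, higher in WT replicate 1 (15.7% of genes, 8.44% higher and 7.24% lower). Past 2-fold there were 0 (5.29% of genes, 3.05% higher and 2.25% lower), and 5 of the 10 read lower in WT replicate 1 (49.9% of genes). The difference within PA was larger than that within WT for 8 of the 10 genes (62.4% of genes) and larger than that between the genotypes for 7 (59% of genes). The median absolute log2 difference of the 10 genes was 0.92 in the PA pair and 0.17 in the WT pair, beside 0.34 and 0.22 over all tested genes. The pattern of PA replicate 1 below both WT livers and PA replicate 2 above both was shown by Srebf1, Fasn, Acly and Dgat2, or 4 of 10, against 9.43% of tested genes. The reverse pattern was shown by 0 of 10, against 10.5%.

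**Figure D2:**
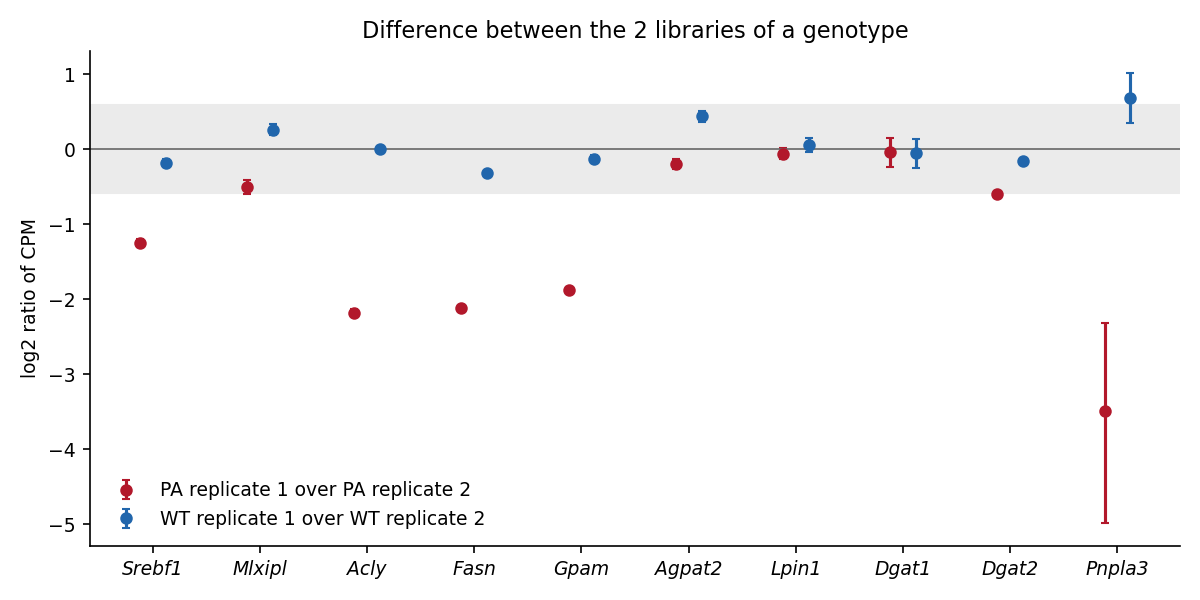
log2 ratio of CPM of replicate 1 over replicate 2 within PA (red) and within WT (blue) for each gene; bars are 95% counting intervals and the grey band marks differences under 1.5-fold. Acly (-2.18), Fasn (-2.12) and Gpam (-1.87) lie far below 0 in the PA pair and near 0 in the WT pair.

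The edgeR result for the genotype depended on which PA liver was kept. A fit without 1 PA library leaves 1 mouse in that group and takes its variation from the WT pair. With PA replicate 2 alone, Fasn (log2 fold change 1.24, adjusted p = 0.0304), Acly (1.17, 0.0240) and Gpam (2.13, 0.00183) were called higher than WT, where 2.02% of genes were called and 0.859% were called higher. With PA replicate 1 alone, Acly (-1.02, 0.0428) and Pnpla3 (-4.67, 0.00516) were called lower, where 3.34% of genes were called and 1.74% were called lower. Acly was therefore called in both fits, in opposite directions. Pnpla3 was at -1.19 (adjusted p = 0.145) with PA replicate 2 alone, where Gpam and Fasn differed more from WT. Fasn was at -0.89 (adjusted p = 0.0935) and Srebf1 at -0.44 (0.314) with PA replicate 1 alone, against 0.81 (0.0906) for Srebf1 with PA replicate 2 alone. Lpin1 kept its size, at 0.70 and 0.77, with adjusted p of 0.104 and 0.0917.

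**Figure D3:**
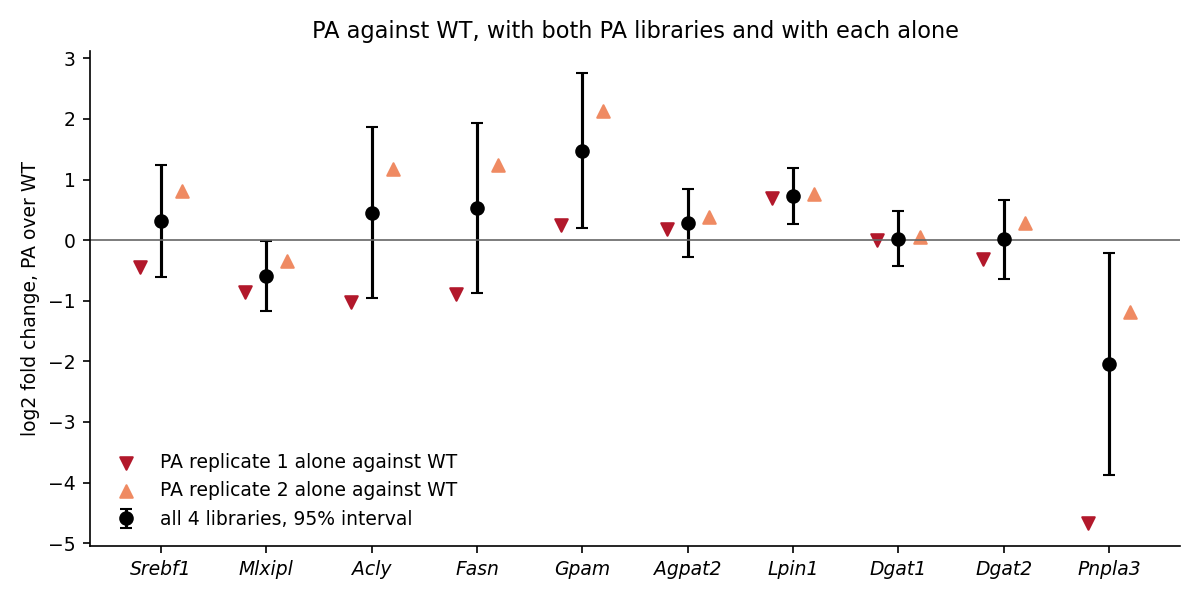
log2 fold change of PA over WT from edgeR with all 4 libraries (black, 95% interval) and with PA replicate 1 alone (red) or PA replicate 2 alone (orange) against both WT livers. Acly lies at -1.02 with PA replicate 1 and at 1.17 with PA replicate 2, Fasn at -0.89 and 1.24, and Lpin1 at 0.70 and 0.77.

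The upstream sequences of the genes that differed most between the PA livers are shown with short motifs of factors known to act on lipogenic promoters. Starts were taken from RefSeq (GRCm38.p6), which gave 12 starts for 8 of the 10 genes, and Dgat1 and Dgat2 are not shown. In the 250 bases before each start, both strands were searched for TCACNCCAC (sterol regulatory element, bound by SREBPs), CACGTG (E-box), CCAAT (NF-Y box) and GGGCGG (GC box, bound by SP1). Below, capitals mark every match. Fasn is chr11:120824548-120824797, Acly is chr11:100528001-100528250, the more upstream of 2 Gpam starts is chr19:55127239-55127488 and the most downstream Srebf1 start is chr11:60210472-60210721, all on the minus strand, and Pnpla3 is chr15:84167566-84167815 on the plus strand.
Fasn: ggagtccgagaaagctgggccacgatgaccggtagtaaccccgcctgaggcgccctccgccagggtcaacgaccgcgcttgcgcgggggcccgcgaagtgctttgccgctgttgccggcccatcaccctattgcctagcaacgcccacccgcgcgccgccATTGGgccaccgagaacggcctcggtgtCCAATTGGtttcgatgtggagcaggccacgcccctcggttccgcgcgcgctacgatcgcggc
Acly: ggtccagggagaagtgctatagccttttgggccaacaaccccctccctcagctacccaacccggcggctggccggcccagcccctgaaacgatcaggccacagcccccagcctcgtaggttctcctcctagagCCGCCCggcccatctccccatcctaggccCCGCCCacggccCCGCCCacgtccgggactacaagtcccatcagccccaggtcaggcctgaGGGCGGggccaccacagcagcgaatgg
Gpam: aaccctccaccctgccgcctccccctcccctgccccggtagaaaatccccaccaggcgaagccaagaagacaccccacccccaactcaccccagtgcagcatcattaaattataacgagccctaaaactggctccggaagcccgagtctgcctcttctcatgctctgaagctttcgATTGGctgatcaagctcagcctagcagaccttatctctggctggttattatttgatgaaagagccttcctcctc
Srebf1: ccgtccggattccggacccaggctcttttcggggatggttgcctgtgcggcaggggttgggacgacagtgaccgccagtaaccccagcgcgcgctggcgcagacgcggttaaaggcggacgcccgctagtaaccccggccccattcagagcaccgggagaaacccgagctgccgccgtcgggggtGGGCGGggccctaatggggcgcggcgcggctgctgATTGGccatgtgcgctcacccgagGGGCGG
Pnpla3: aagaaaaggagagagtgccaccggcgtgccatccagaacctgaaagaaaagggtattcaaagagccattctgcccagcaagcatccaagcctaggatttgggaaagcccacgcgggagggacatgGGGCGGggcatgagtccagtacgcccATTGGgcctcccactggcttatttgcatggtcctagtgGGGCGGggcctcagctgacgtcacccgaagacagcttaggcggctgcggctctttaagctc

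Fasn held 3 matches to the NF-Y box, beginning 90, 62 and 59 bases before the start, the last 2 overlapping each other, and none to the other motifs. Acly held 4 GC boxes and none of the others. Gpam held 1 NF-Y box at the start shown and 1 GC box at its other start, Srebf1 held 1 NF-Y box and 2 GC boxes, and Pnpla3 held the same numbers as Srebf1. Over the 12 starts, 6 had an NF-Y box and 7 a GC box, beside 33.8% and 32.7% of 32851 mouse promoters of the same length. The TCACNCCAC motif was found at 1 start, of Mlxipl, and CACGTG at the other Mlxipl start, beside 1.05% and 6.02% of promoters. A match is a description of the letters in the window, and no match says nothing of binding elsewhere. Only these exact strings were searched, N being any base, so variant sites inside the window would be missed.

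Most other genes of fatty acid synthesis and its supply were lower in PA replicate 1. Of 18 genes in that list, all tested, 11 were past 1.5-fold lower in PA replicate 1 than in PA replicate 2 and 0 were higher, where 12.6% of tested genes were lower. Slc25a1 and, named after their values were seen, Idh1 and Mdh1 read higher in PA replicate 1, by 0.21, 0.14 and 0.41 on the log2 scale. Also chosen after their values were seen, Acacb, the acetyl-CoA carboxylase that makes the malonyl-CoA controlling fatty acid oxidation, read 35.6 and 205 CPM in PA replicates 1 and 2, against 96.4 and 81.7 CPM in WT. Acss2, which makes cytosolic acetyl-CoA from acetate, was at 268 and 733 CPM in PA and 306 and 335 CPM in WT. In 7 of the 18 genes PA replicate 1 lay below both WT livers and PA replicate 2 above both.

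Between the genotypes 1 gene of that list passed the edgeR test. Scd2, a stearoyl-CoA desaturase, rose to 23.99 and 33.1 CPM in PA, against 4.73 and 4.87 CPM in WT (log2 fold change 2.57 ± 0.24, edgeR adjusted p = 0.00654). Unlike Fasn, it was high in both PA livers. Scd1, a far more abundant stearoyl-CoA desaturase named after its values were seen, did not share this rise. It read 2635 and 5643 CPM in PA, against 5676 and 5856 CPM in WT (log2 fold change -0.48, edgeR adjusted p = 0.711). Slc25a1, which exports mitochondrial citrate, had a log2 fold change of 0.37 (adjusted p = 0.578). The list's median was 0.15.

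Of 17 genes that control SREBP and ChREBP, 0 were called by edgeR, DESeq2 or limma-voom. An unadjusted edgeR p under 0.05, found in 11.8% of all tested genes, was found in 2 of them. Those were Pparg, a nuclear receptor that promotes lipid storage (log2 fold change 1.08, edgeR adjusted p = 0.265), and Srebf2, the factor of sterol synthesis (0.50, 0.383). Mbtps1, the protease that first cuts SREBP precursors, had a log2 fold change of -0.33 (0.550). Insig1, an SREBP target that holds SREBPs in the endoplasmic reticulum, was named after its values were seen, at 439 and 1059 CPM in PA and 691 and 798 CPM in WT. It had the order of Fasn. The list as a whole did not, with 2 genes past 1.5-fold in each direction between the PA livers. Of all tested genes, 12.6% were lower and 15.4% higher in PA replicate 1, so these counts are near the background.

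The isoenzymes of glycerolipid synthesis did not split as Gpam did. Of 16 tested genes of 17, 1 was past 1.5-fold lower and 3 were higher in PA replicate 1. These counts are near the background, where 12.6% of all tested genes were lower and 15.4% higher. Between the genotypes 0 were called by edgeR, DESeq2 or limma-voom. The smallest unadjusted p was that of Plpp1, a lipid phosphatase whose difference was 0.65 on the log2 scale (edgeR adjusted p = 0.277). It alone was under 0.05, beside 11.8% of all tested genes. Gpat4, a GPAT of the endoplasmic reticulum, was at 82.3 and 108 CPM in PA and 74.5 and 72.7 CPM in WT (log2 fold change 0.37, adjusted p = 0.575). Agpat5 had a log2 fold change of 0.38 (adjusted p = 0.565). Mogat2 did not pass the filter on low counts.

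Genes of lipid droplets, lipolysis and VLDL assembly did not share the direction of Fasn between the PA livers. Of 20 tested genes of 21, 7 were past 1.5-fold higher in PA replicate 1 and 3 lower, beside 15.4% and 12.6% of all tested genes. Plin4, a perilipin that coats lipid droplets, was at 18.6 and 4.31 CPM in PA and 1.79 and 1.06 CPM in WT (log2 fold change 2.98 ± 0.68, edgeR adjusted p = 0.133; called by DESeq2). Both PA livers were above WT, with PA replicate 1 the higher, which is the reverse of Fasn. Plin3, another perilipin, was even within PA, at 84.1 and 88.8 CPM against 45.3 and 43.4 CPM in WT (log2 fold change 0.96 ± 0.19, edgeR adjusted p = 0.0923; DESeq2 0.00585). Pnpla5, a patatin relative of Pnpla3, had 0 and 12 counts in PA and 63 and 42 counts in WT (edgeR adjusted p = 0.188). By edgeR and limma-voom 0 genes of the list were called. DESeq2 called 4 (with Plin5 and Hsd17b13), where it called 3.07% of all tested genes. An unadjusted edgeR p under 0.05 was found in 7, beside 11.8% of all tested genes.

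Markers of fasting differed between the PA livers and, in part, between the WT livers. Of 12 fasting response genes, 10 were past 1.5-fold higher in PA replicate 1 than in PA replicate 2 and 0 lower, where 15.4% of tested genes were higher. Chosen after their values were seen, G6pc, the last enzyme of glucose output, was at 311 and 70.8 CPM in PA and 536 and 260 CPM in WT, and Angptl4, an inhibitor of lipoprotein lipase, at 173 and 42.4 CPM in PA and 142 and 78.1 CPM in WT. Between the WT livers 5 fasting genes were past 1.5-fold higher and 3 lower in replicate 1, beside 8.44% and 7.24% of all tested genes. The list's median log2 ratio of replicate 1 over replicate 2 was 0.92 in PA and 0.51 in WT. Across the genotypes Cyp4a14, a fatty acid omega-hydroxylase, was called (log2 fold change 2.05, edgeR adjusted p = 0.0295; 0.0605 and 0.120 without WT replicates 1 and 2). Ppargc1a and Irs2 had log2 fold changes of 1.05 and -0.62 that did not pass (edgeR adjusted p = 0.251 and 0.529). The part of feeding state in the split was not tested.

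Clock genes differed within both genotypes. Of 15 tested clock genes of 16, 8 were past 1.5-fold between the PA livers, where 28% of all tested genes were. Of these 8, 6 were lower in PA replicate 1, where 12.6% of all tested genes were. Between the WT livers 13 were past it, beside 15.7% of all tested genes. In WT replicate 1, 8 of them were lower and 5 higher, beside 7.24% and 8.44% of all tested genes. No clock gene was called by edgeR, DESeq2 or limma-voom, and 2 had an unadjusted edgeR p under 0.05, beside 11.8% of all tested genes. Per1, a core clock gene, was at 13.1 and 22.8 CPM in PA and 7.34 and 9.54 CPM in WT (log2 fold change 1.09, edgeR adjusted p = 0.217). Nr1d2 and Cry1, clock repressors, had log2 fold changes of -1.01 and 1.10 (edgeR adjusted p = 0.373 and 0.483). Cry1 was at -0.01 with PA replicate 1 alone and 1.72 with PA replicate 2 alone. The part of collection time was not tested.

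**Figure D4:**
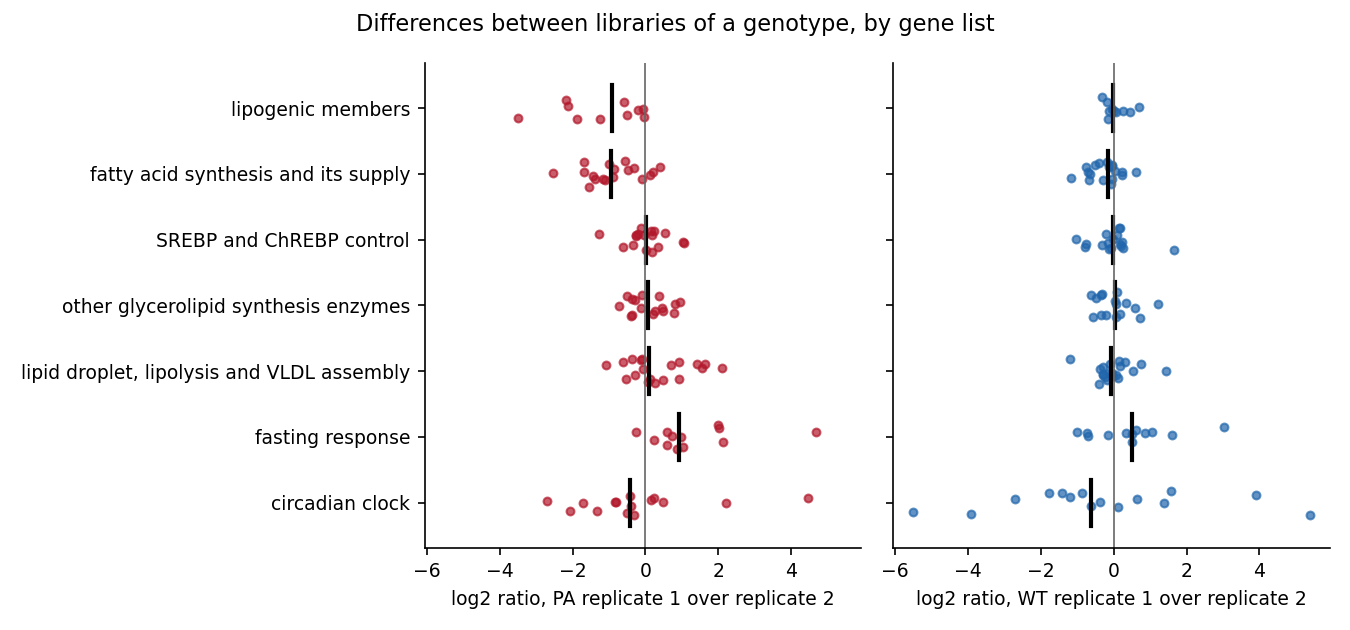
log2 ratio of CPM of replicate 1 over replicate 2 within PA (left) and within WT (right) for every tested gene of 7 lists; each point is 1 gene and black bars are medians. In the PA panel the lipogenic genes (median -0.92) and the fatty acid synthesis genes (-0.93) lie left of 0 and the fasting genes (0.92) right of it; Pnpla5, at 0 counts in PA replicate 1, is not drawn.

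Markers of other cell types were examined because adipose tissue also expresses this pathway. Of 7 adipocyte markers, 2 were tested; Plin1, Lep and Retn had 0 counts in every library, Adipoq and Cfd had 0 counts in both PA libraries, and the summed level was 21.3 and 14.6 CPM in PA and 12.8 and 10.4 CPM in WT, mostly Fabp4. The 7 Kupffer cell and macrophage markers summed to 170 and 251 CPM in PA and 378 and 335 CPM in WT. By edgeR or limma-voom 0 were called, and 2 had an unadjusted edgeR p under 0.05, beside 11.8% of all tested genes. Clec4f, the most abundant, differed by -0.99 on the log2 scale (edgeR adjusted p = 0.195) and was called by DESeq2 (adjusted p = 0.0300). Of 3 erythroid markers Hbb-bs, a globin, fell to 6.12 ± 1.72 CPM in PA, against 43.7 ± 18.9 CPM in WT (log2 fold change -2.83, edgeR adjusted p = 0.0256). Endothelial markers summed to 85.2 and 95.2 CPM in PA and 92.3 and 86.1 CPM in WT, stellate cell markers to 376 and 339 CPM in PA and 332 and 345 CPM in WT, and cholangiocyte markers to 29.8 and 32.5 CPM in PA and 34.3 and 48.2 CPM in WT. Of 5 pancreatic acinar markers Cpa1, Pnlip and Gp2 had 0 counts in every library, and the sum was under 1 CPM in each. The part of cell composition in the lipogenic values was not tested.

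By a rule that takes the gene with the largest fold change and asks which other genes had the nearest profile over the 4 libraries, Pnpla3 was matched most closely by Cyp2c40, Ces3a, Cux2, BC055324 and Xlr3a. The root mean square difference of centred log2 CPM was 0.27 for Cyp2c40 and 0.47 for Xlr3a. Cyp2c40, a cytochrome P450, was at 37.6 and 346 CPM in PA and 710.4 and 605 CPM in WT. Cux2, a homeobox transcription factor, was at 0.471 and 6.09 CPM in PA and 22.4 and 17.1 CPM in WT. As in Pnpla3, both PA livers were below both WT livers and PA replicate 1 was the lowest. That shared order follows from the choice of genes by nearest profile, and the Pnpla3 profile rests on 6 counts in PA replicate 1. The nearest member of the 10 was Mlxipl, at 1.57, only at rank 854 among 14379 genes compared, with Acly close behind at 1.58. Mlxipl had the same order of the 4 libraries as Pnpla3, with smaller differences between them.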

How the data were processed

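Liver polyA RNA of 2 PA and 2 WT mice was analysed, with groups and replicate numbers from the sample titles. The submitters' processing notes list STAR 2.7.6a, RSEM 1.3.3 and build GRCm38, and the annotation release is not given in the sources used here. The deposited STAR tables hold raw read counts per gene; the opposite-strand column, 97.0 to 97.1% of stranded counts, was used. The 4 summary lines, 28.1 to 34.3% of reads, name no gene and were left out. Expected counts from RSEM, as the authors deposited them, were rounded for an alternative, and TPM as deposited, scaled within a library and per length, served only for levels between genes. Of 55487 identifiers, 55227 matched GENCODE M21 (GRCm38), which gave symbols and positions.

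The main test was edgeR 4.0.16 in R 4.3.3 (TMM, filterByExpr, quasi-likelihood test, prior count 0.125, genotype only), with Benjamini-Hochberg adjustment over all tested genes; limma 3.58.1 and DESeq2 1.42.0 were alternatives. Standard errors were derived from the fold change and the F statistic. Called means an adjusted p under 0.05. Ratios between libraries carry exact binomial 95% intervals. Depths put 3 counts at 0.0996 to 0.117 CPM. Neither replicate pair agreed within sampling noise (chi-square per degree of freedom 137 for PA and 46.8 for WT). The fit was tested on simulated counts. The series' design text calls the 2 samples per group biological replicates.

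The genes, lists and rules were chosen with earlier results of these data known. Named were all 10 genes, Pcca, the called genes and 3 smallest p of each pathway list, the most abundant or called cell type markers, and the 5 genes nearest in profile to the gene with the largest fold change; others are said to be named after their values were seen. A gene that the rule names is not reported here. Kdr, Dcn, Spp1 and Cela2a, the most abundant of their marker lists, are given through the sums of their lists.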

Additional observations from a re-analysis of the deposited data

How the results depend on the processing

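Of the 10 genes, 0 were called by edgeR with RLE size factors, library sizes only, at least 1 CPM in at least 2 libraries, unstranded counts, RSEM expected counts, without mitochondrially encoded genes and with the replicate block, and 0 by limma-voom. With no filter on low counts 2 were called (Gpam and Pnpla3), with DESeq2 1, and in fits that left out 1 library 0 to 3. Counts over all tested genes were 117 (32.5% higher in PA), 902 with no filter (45.9%), 442 with DESeq2 (42.1%), 318 with the replicate block (39.6%), and 155 to 500 in fits that left out 1 library (32.3 to 47.8%). In the pathway lists 2 genes were called, 17 with no filter, 6 with DESeq2, 5 with the replicate block and 4 to 12 in fits that left out 1 library. The cause of these shifts was not tested.

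The direction turned for Dgat2 and Dgat1, both near 0, and for Acly, Fasn and Srebf1 when PA replicate 2 was left out. Dgat2, at 0.01, was -0.0307 with library sizes only, -0.00146 with no filter, -0.0194 with limma-voom and -0.0151 with the replicate block, and ran from -0.31 to 0.28 when 1 library was left out. Dgat1, at 0.03, was -0.0187 with library sizes only and ran from -0.00825 to 0.0639. When 1 library was left out, Acly ran from -1.02 to 1.17, Fasn from -0.89 to 1.24, Srebf1 from -0.44 to 0.81, Gpam from 0.25 to 2.13 and Pnpla3 from -4.67 to -1.19. With the replicate block Fasn was at 0.18, Acly at 0.08 and Srebf1 at 0.18, and the median of the 10 genes was 0.13. The count of genes past 1.5-fold between the PA livers was 5 with RSEM expected counts and 6 under the other scalings and counts tried. The median log2 fold change of all genes stayed between -0.04 and 0.01 under every scaling and count type tried.

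The differences between replicates 1 and 2 in PA and in WT had a correlation across genes of -0.0907. A correlation over all genes cannot tell whether mice of the same replicate number shared a condition that acts on fewer genes. Pairing by replicate number was otherwise not tested. The depth of 6 counts limits Pnpla3 in PA replicate 1.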

Other observations

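The profile of Fasn was also compared with all 14379 tested genes with counts in every library, a search chosen after its values were seen. Acly was the second nearest gene, with a root mean square difference of 0.13 in centred log2 CPM over the 4 libraries. Srebf1 stood at rank 32 (0.31), Gpam at 495 (0.52) and Dgat2 at 787 (0.55), while Pnpla3 was among the least similar at rank 14171 (1.66). The nearest protein-coding genes outside the pathway were Il2rg, Plek2, Vac14, Orm3 and Rrp15. Vac14 was at 7.14 and 20.9 CPM in PA and 10.1 and 11.5 CPM in WT. With 4 libraries, many genes share a profile, and no test was made.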
